A study of Mus musculus with 8 samples.

Results

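The miRNA repertoire of cardiomyocytes from sham-operated mice was described from the 4 sham libraries of a small RNA sequencing series of 8 libraries. Of 697 mature miRNAs listed in the count tables, the 400 with a mean above 10 counts over the 4 sham libraries were taken, and the libraries from hearts under transverse aortic constriction were not used. The study placed this group as the reference for pressure overload. The mice were male, were 2 months old at the sham operation and were examined 14 weeks after it, and their cardiomyocytes were freed by Langendorff perfusion. The study's methods also call the mice 14 weeks old at isolation, and time after surgery is the reading used here. Each library came from the total RNA of part of the myocytes of 1 heart. No allele or transgene is given for the group, and the mouse strain is not given in the sources used here.

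A miRNA is cut from a hairpin in a longer primary transcript, first by Drosha in the nucleus and then by Dicer in the cytoplasm. The resulting duplex has a strand from the 5′ side of the hairpin (5p) and a strand from the 3′ side (3p), and Argonaute usually keeps the strand whose 5′ end is less firmly paired and often begins with U or A. Bases 2 to 8 of the loaded strand, the seed, pair with target mRNAs, so that miRNAs with the same seed form a family with overlapping targets. Hairpins close together on a strand are often cut from a common transcript. In the heart, miR-1 and miR-133a are made from shared muscle transcripts under muscle transcription factors, and miR-208a and miR-499 lie in introns of myosin heavy chain genes.

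The mature sequences of the leading family members show why their counts were also summed by seed. They were read from RefSeq (GRCm38.p6), in which 346 of the 400 miRNAs were matched by name, and the seed is in capitals. The first 4 share the let-7 seed, the next pair the miR-30 seed, and the others lead their own families.
let-7f-5p: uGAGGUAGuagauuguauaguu
let-7a-5p: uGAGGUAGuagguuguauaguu
let-7c-5p: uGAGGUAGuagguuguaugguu
let-7d-5p: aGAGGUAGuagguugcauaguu
miR-30a-5p: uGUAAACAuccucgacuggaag
miR-30e-5p: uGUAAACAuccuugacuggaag
miR-22-3p: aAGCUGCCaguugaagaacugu
miR-26a-5p: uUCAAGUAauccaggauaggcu
miR-99a-5p: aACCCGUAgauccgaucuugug
miR-27b-3p: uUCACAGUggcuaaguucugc
miR-125b-5p: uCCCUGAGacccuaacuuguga
miR-126a-3p: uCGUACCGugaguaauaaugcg
The let-7 sequences differ from one another only outside the seed. Over the 346 sequenced miRNAs, the first base was U in 148 (42.8%), against 40.9% of the 1679 mature miRNAs of the RefSeq table. Weighted by counts, U came first in 70.5% and G in 0.235% of the tags of these 346 miRNAs, which held 64.6% of all counts. Among the 39 sequenced miRNAs of the 50 most abundant, 27 began with U and 0 with G.

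The 4 libraries held 4628214, 5392576, 4906888 and 4005668 tags on miRNAs for sham replicates 1 to 4, and the 400 miRNAs took at least 99.98% of them in each. Of the other listed miRNAs, 275 had some counts with a mean at or below 10, and 22 were listed at 0 in all 4 libraries, where 3 counts of a library total is the most that a count of 0 allows. Counts were divided by the library's miRNA total and are given as CPM, parts in 1000000 of that total. CPM are relative, so a rise of 1 miRNA lowers the share of the others. They are shares of tags, and how tags of different miRNAs or arms relate to numbers of molecules was not tested. In bulk RNA, fewer cells of a type and less RNA per cell cannot be told apart. Just inside the minimum lay miR-382-3p and miR-1955-5p, each with a mean of 10.5 counts, and miR-1948-3p with 10.25. Just outside lay miR-196b-5p, miR-1934-5p and miR-1968-5p, each with a mean of exactly 10 counts.

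The cardiomyocyte label was checked against marker miRNAs. The 5 cardiomyocyte marker miRNAs were all detected and together held 17.7% ± 1.64 (SD, n = 4) of the counts, with summed levels of 160712 to 198133 CPM. Nearly all of this came from miR-1a-3p, with a mean of 108665 CPM, and miR-133a-3p, with 67356 CPM. The sum therefore rests on these miRNAs of muscle and hardly on those of myosin introns. miR-208a-3p, from an intron of the alpha myosin gene Myh6, measured 478, 448, 505 and 645 CPM in sham replicates 1 to 4. miR-499-5p, from an intron of Myh7b, measured 738, 778, 581 and 777 CPM. miR-208b-3p, from an intron of the slow myosin gene Myh7, was lower than both in every library, at 36.5, 71.2, 31.4 and 26.0 CPM. The miRNAs best known from myosin introns were therefore minor species beside miR-1a-3p and miR-133a-3p.

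Markers of other cells were also present. The endothelial pair, both arms of miR-126a, held 6.005% ± 1.06 of the counts, and the 6 fibroblast and smooth muscle markers held 4.74% ± 0.321 (SD, n = 4 each). The summed endothelial level ranged from 49248 to 72051 CPM and was lowest in sham replicate 1. The 5 leukocyte markers held 0.192% ± 0.0480 and the 3 erythroid markers 0.0962% ± 0.0444. Erythroid levels summed to 418 CPM in sham replicate 1 and to 918 to 1503 CPM in the others. miR-144-3p, made in red cells, led that list at 327, 647, 1078 and 714 CPM. The 10 epithelial markers summed to 318 to 497 CPM, the 3 pancreas acinar markers to 14.1 to 33.0 CPM, and the 2 neuron markers to 18.7 to 33.9 CPM. The liver marker miR-122-5p was at 4.11 to 8.72 CPM. The skeletal muscle marker miR-206-3p was at 240, 1390, 229 and 199 CPM in sham replicates 1 to 4. No list was at 0 in the libraries, but the acinar marker miR-217-5p had counts in sham replicate 2 alone. The part of other cells in the levels below was not tested.

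Few miRNAs held most of the counts. The 10 most abundant held 57.3% ± 0.982 of the counts, the 20 most abundant 79.6% ± 0.893 and the 50 most abundant 95.4% ± 0.194 (SD, n = 4 each). It took 9 miRNAs to reach 50% of the counts, 33 to reach 90% and 107 to reach 99%. From the least to the most abundant of the 400 miRNAs, mean CPM spanned 50119-fold. Only miR-1a-3p lay above 100000 CPM, a further 22 lay above 10000 CPM, and 130 lay below 10 CPM with 0.0570% of the counts together.

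**Figure D1:**
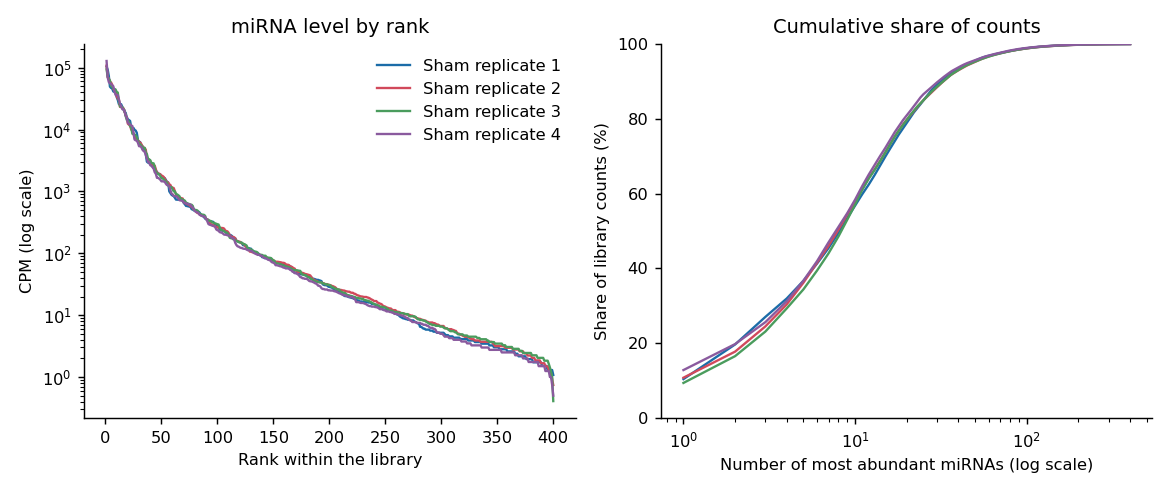
Left, CPM (log scale) against rank within each of the 4 sham libraries, 1 line a library; right, the cumulative share of library counts (%) against the number of most abundant miRNAs (log scale). The lines lie close together, with the 10 most abundant miRNAs of the group mean at 56.0 to 58.4% of each library.

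The muscle miRNAs came first. miR-1a-3p, which in muscle favours differentiation, was the most abundant in every library, at 104229, 108024, 93974 and 128433 CPM in sham replicates 1 to 4, or 10.9% ± 1.45 of the counts (SD, n = 4). miR-133a-3p, its partner from the same primary transcripts, measured 92653, 59073, 65620 and 52077 CPM. The ranges of the pair did not overlap, and miR-1a-3p was 1.61 times higher on average. The order of the next ranks was less fixed. miR-22-3p, known for its part in cardiac hypertrophy, measured 49399, 67355, 71670 and 69458 CPM, and it stood above miR-133a-3p in 3 of 4 libraries. miR-26a-5p measured 46033, 69689, 62148 and 58551 CPM. miR-99a-5p measured 73567, 53227, 45303 and 54676 CPM, and it was highest in sham replicate 1, where miR-22-3p and miR-26a-5p were lowest.

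The next 5 miRNAs lay close to one another. let-7f-5p, of the family that holds cells in a differentiated state, measured 40517, 57852, 50207 and 56201 CPM. miR-27b-3p measured 41347, 45210, 44618 and 50229 CPM. miR-378a-3p, from an intron of the metabolic coactivator gene Ppargc1b, measured 47143, 30481, 45927 and 41657 CPM, lowest in sham replicate 2. These 3 overlapped in range. miR-125b-5p was the steadiest of the 10 most abundant, at 39653, 40870, 40700 and 36274 CPM, a coefficient of variation (CV) of 5.42%. miR-126a-3p, which guides endothelial responses to vascular growth factor, was the least steady of these 10, at 25759, 43188, 50698 and 36421 CPM, a CV of 27.1%.

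Below the first 10, several levels were held closely. miR-143-3p, known from smooth muscle, measured 33579, 34760, 39680 and 36121 CPM. let-7a-5p measured 30182, 31721, 29294 and 30641 CPM. Their ranges did not overlap with each other, nor did that of let-7a-5p with the next. miR-486a-5p, from the ankyrin gene Ank1 and known in muscle and red cells, measured 25784, 23222, 23562 and 21393 CPM. miR-486b-5p followed at 25695, 23158, 23518 and 21359 CPM. Its counts were within 0.346% of those of miR-486a-5p in each library, and neither level can be taken as independent of the other.

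The last 6 of the 20 were of known families. miR-30a-5p measured 19332, 19724, 23233 and 26042 CPM and miR-30e-5p, with the same seed, 14214, 16979, 16688 and 24121 CPM. Both were highest in sham replicate 4. let-7c-5p measured 21332, 22276, 20623 and 20262 CPM, with a CV of 4.20%. miR-126a-5p, the other arm of the endothelial hairpin, measured 23488, 22419, 21352 and 16874 CPM. Its order over the libraries was not that of miR-126a-3p. miR-29a-3p, a repressor of collagen genes, measured 18754, 11960, 13378 and 11424 CPM, highest in sham replicate 1. miR-125a-5p measured 10907, 15952, 14373 and 12919 CPM.

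Neighbours in rank were compared over the 20 pairs down to miR-24-3p at rank 21. The order was the same in all 4 libraries for 4 pairs, and the ranges did not overlap for 3 of them. A two-sided sign-flip test of 4 libraries is exact and cannot go below p = 0.125, so no order of neighbours could pass 0.05. Of the 20 most abundant, 19 were also among the 20 most abundant after leaving out any 1 library.

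**Figure D2:**
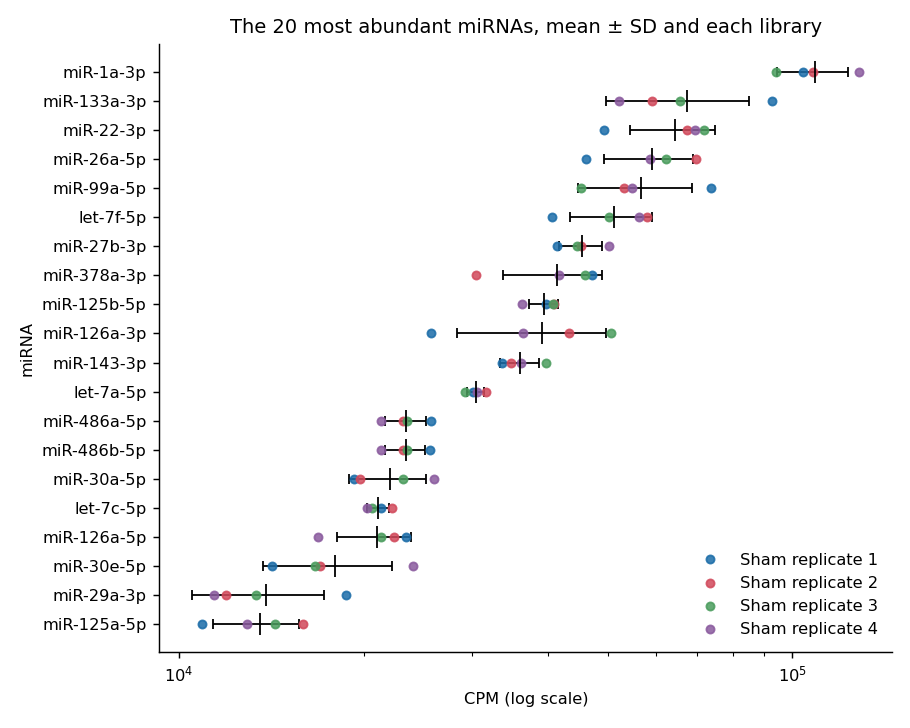
CPM (log scale) of the 20 most abundant miRNAs, with 1 point for each sham library, a bar at the mean and error bars of 1 SD (n = 4). miR-1a-3p lies at 93974 to 128433 CPM, above the range of miR-133a-3p, and most other neighbours overlap.

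Summed by seed, the let-7 family was the most abundant. Its 9 members held 12.4, 13.9, 12.7 and 13.2% of the counts in sham replicates 1 to 4, a mean of 13.1% ± 0.669 (SD, n = 4). let-7f-5p supplied 39.2% of the family, and let-7a-5p and let-7c-5p followed. The remaining members ranged from let-7g-5p, at 8365 ± 1673 CPM, down to let-7e-5p, at 1075 ± 272 CPM, and miR-98-5p, at 316 ± 78.2 CPM. The let-7 sequences above differ at few bases, and how tags that fit several miRNAs were assigned is not given in the sources used here, so the family sum is firmer than its split. The family varied less between libraries (CV 5.12%) than its leading member (CV 15.3%), but more than let-7a-5p (CV 3.32%) and let-7c-5p (CV 4.20%).

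The muscle families followed. miR-1a-3p, counted under its own name, held 10.9% ± 1.45, and the miR-133a-3p family held 7.03% ± 1.77 (SD, n = 4 each). In the latter, miR-133a-3p supplied 95.8%, and miR-133b-3p, whose hairpin lies beside that of miR-206, supplied the rest. miR-133a-3p was placed with miR-133b-3p by name, and how tags that fit both would be assigned is not given in the sources used here. miR-206-3p, a skeletal muscle miRNA known to share the seed of miR-1, was summed apart from it only because miR-1a-3p was counted by name, and its mean was 515 CPM. Adding it to miR-1a-3p would change the sum by 0.0515% of the counts.

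Several of the other large families were mostly 1 miRNA. The miR-22-3p family was that miRNA alone and held 6.45% ± 1.02. The miR-26a-5p family held 6.003% ± 0.994, of which miR-26a-5p supplied 98.5%. The miR-99a-5p family, with miR-99b-5p and miR-100-5p, held 6.70% ± 1.29, of which miR-99a-5p supplied 84.6%. The miR-30a-5p family was the most evenly shared. Its 5 members held 5.41, 6.01, 6.12 and 7.97% of the counts in sham replicates 1 to 4, and miR-30a-5p supplied 34.6%. The family held 6.38% ± 1.11 with miR-30b-5p and miR-30d-5p placed by name, and 4.99% with sequence matches alone, a setting added after the data had been examined. The miR-125b-5p family held 5.32% ± 0.363, the miR-27b-3p family 5.22% ± 0.353 and the miR-378a-3p family, with miR-378c, 4.99% ± 1.05 (SD, n = 4 each). miR-378c itself was at 13797 CPM in sham replicate 1 and at 5837 to 8305 CPM in the others.

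The 10 largest families held 72.0% ± 1.56 (SD, n = 4) of the counts, and 6 were enough for 50%. In all there were 316 families. Only 51 had more than 1 member, and these 51 held 66.4% of the counts. Of the 54 members without a sequence in the table, 8 were placed by name in a family with sequenced members, and 46 stayed under their own names. The sequenced members held 64.6% of the counts, so for the rest, miR-1a-3p, miR-133a-3p, miR-378a-3p and miR-143-3p among them, the family rests on the name.

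The genome positions of the hairpins gave a second grouping. Hairpins within 10 kb on the same strand were taken as 1 cluster (GRCm38, GENCODE vM21), and 396 of the 400 miRNAs had a hairpin. A mature miRNA made by several hairpins was split equally among them, since its tags cannot tell the copies apart. This concerned 34 miRNAs with 42.2% of the counts. The 46 clusters of 2 or more hairpins contained 148 of the 313 hairpins and held 57.6% ± 2.22 (SD, n = 4) of the counts.

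The 2 muscle clusters came first under this split. Mir1a-1 and Mir133a-2 lie 9435 bp from end to end on the plus strand of chromosome 2 (chr2:180389048-180398482), between annotated genes. Mir133a-1 and Mir1a-2 lie on the minus strand of chromosome 18 (chr18:10782909-10785552), in an intron of the non-coding Mir133a-1hg. Each was given 8.88% ± 0.851 (SD, n = 4), or 9.98, 8.41, 8.04 and 9.09% in sham replicates 1 to 4. Counted whole, their shared miRNAs came to 17.8%. Without the shared miRNAs, the chromosome 2 cluster kept 0.000356%, from miR-1a-1-5p alone. The counts therefore gave the output of both loci together and not that of either.

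The third cluster, Mir99a and Mirlet7c-1, lies in an intron of Mir99ahg (chr16:77598936-77599750, plus strand) and held 6.73% ± 1.21. It was highest in sham replicate 1, at 8.43%, and at 5.56 to 6.48% in the others. Mir22 (chr11:75463716-75463810, plus strand) lies in an exon of at least 1 annotated transcript of Mir22hg and of Tlcd2 and held 6.46% ± 1.02 as a lone hairpin. Mir126a (chr2:26591357-26591429, plus strand), in an exon of at least 1 transcript of the endothelial gene Egfl7, held 6.005% ± 1.06 (SD, n = 4 each). None of the miRNAs of Mir22 and Mir126a came from a further hairpin.

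Mir23b, Mir27b and Mir24-1 (chr13:63300484-63301275, plus strand), in 2010111I01Rik, held 5.39% ± 0.278, of which 4.72% came from miRNAs of no other hairpin. Mirlet7d, Mirlet7f-1 and Mirlet7a-1 (chr13:48536012-48538272, minus strand) lie in exons of the non-coding 6720427I07Rik and held 4.90% ± 0.337. Of this, only 0.817% came from unshared miRNAs. Mir378a (chr18:61397835-61397900, minus strand) held 4.19% ± 0.763 from its intron of Ppargc1b. Mir145a and Mir143 (chr18:61647825-61649258, minus strand), known from smooth muscle, held 4.12% ± 0.292 between annotated genes. Mir26a-2 (chr10:126995530-126995613, plus strand), in an exon of at least 1 transcript of Ctdsp2, held 2.96% ± 0.494 (SD, n = 4 each) and shared it with Mir26a-1 in Ctdspl.

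**Figure D3:**
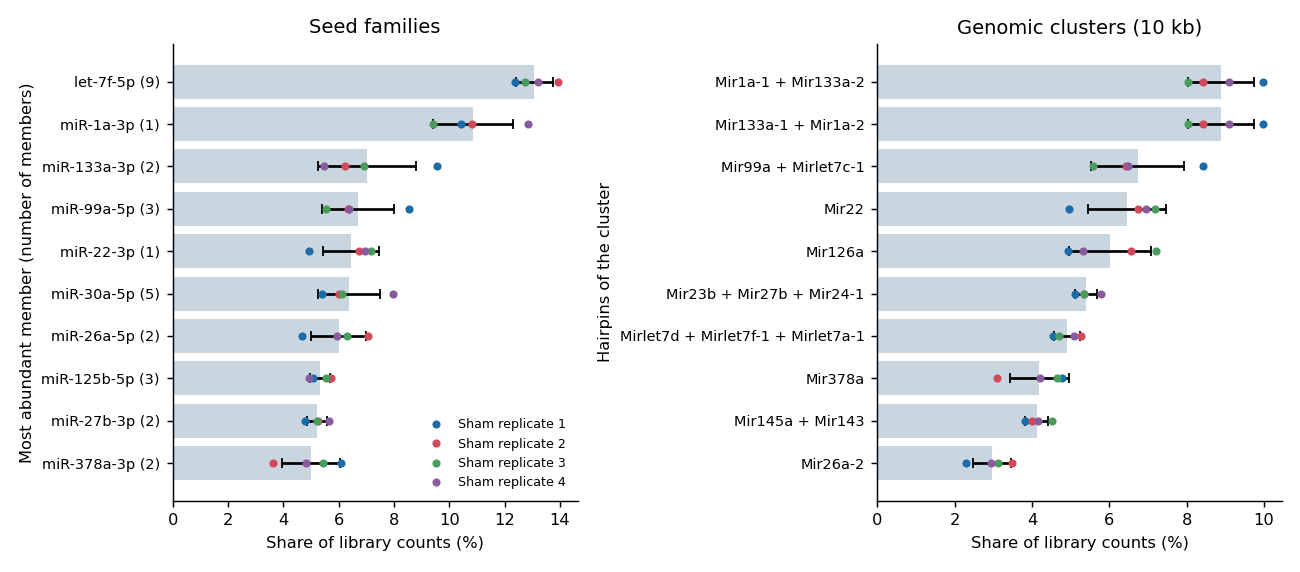
Share of library counts (%) of the 10 largest seed families (left, with the number of members) and the 10 largest genomic clusters (right, shared miRNAs split equally), as bars of the mean with 1 SD (n = 4) and 1 point for each sham library. The let-7 family leads at 12.4 to 13.9%, and both miR-1a and miR-133a clusters stand at 8.04 to 9.98%.

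The mature miRNAs of a cluster, arms included, were far from equal. Over the 38 clusters, lone hairpins not counted, with 2 or more unshared miRNAs, the median fold between the highest and the lowest was 45.3, arms included, with a range of 1.0 to 5652. The largest fold was that of miR-99a-5p over miR-99a-3p, the arms of the same hairpin. The lowest miRNA of a cluster was often the lower arm of a hairpin, so these folds do not compare the output of its hairpins. By chromosome, the 9 hairpins on chromosome 18 held 17.2% ± 1.26 and the 40 on chromosome 2 held 15.7% ± 0.402. The 39 on the X chromosome held 2.94% ± 0.374 (SD, n = 4 each). By annotation, the 29 hairpins in introns of non-coding genes held 24.4% ± 2.16, more than the 124 in introns of protein-coding genes, which held 19.2% ± 0.492. The 27 in exons of protein-coding genes held 22.4% ± 2.63 and the 76 between genes 21.04% ± 0.976. The 36 in exons of non-coding genes held 10.99% ± 0.565 and the 21 antisense to a gene 1.98% ± 0.327 (SD, n = 4 each). Mir22, which lies in exons of both kinds of gene, was counted under protein-coding genes. Since miR-22-3p alone held 6.45% of the counts, the exon shares rest on that choice. Under the equal split of shared miRNAs, the intronic non-coding share was above the intronic protein-coding share in each library. The chromosome 18 muscle cluster, in a non-coding intron, was given 8.88% by that split and kept 0% without shared miRNAs. The counts do not tell its output from that of the chromosome 2 muscle cluster, between genes. The order of the intron shares, and of chromosomes 18 and 2, therefore rests on the split. A hairpin that overlapped an exon of any transcript of its host gene was counted as exonic. Mir126a, with 6.005% of the counts, was placed under exons of protein-coding genes in this way. The order of the intron shares therefore rests on that rule as well.

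Arm preference was measured in 182 hairpin names with both arms listed and at least 1 arm among the 400 miRNAs. Where copies of a hairpin have separate names for an arm, their counts were summed. The arms were compared within libraries by edgeR's quasi-likelihood test, with library as a term and Benjamini-Hochberg adjustment over the 182. The SE given with a log2 ratio is the size of that ratio divided by the square root of the test's F statistic. It is not a fitted standard error. At an adjusted p below 0.05, 168 (92.3%) differed between arms, with the 5p arm higher in 101 (55.5%) and the 3p arm in 67 (36.8%). A name that passed the minimum through 1 arm alone had to be unequal, and this held for 58 names. Among the 124 with both arms above a mean of 10 counts, 112 were called in the same fit.

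The lower arms held a small part of the counts. Higher arms held 94.5% and lower arms 3.48% of all counts. The median share of the higher arm was 96.5%, with a range from 51.1 to 100%. The higher arm had over 90% in 122 names and over 99% in 66, and under 75% in 35. The same arm was higher in all 4 libraries in 169 of the 182 names. The median SD of the 5p share between libraries was 0.981 percentage points. These figures cover all 182 names, including the 58 that passed the minimum through 1 arm alone and had to be unequal.

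The most extreme pairs are shown with both strands, since the strand that was kept and the one that was not can be read side by side. They are the called names with sequences for both arms among the 5 most extreme on each side, again from RefSeq (GRCm38.p6) with the seed in capitals.
miR-99a-5p: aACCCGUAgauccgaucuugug
miR-99a-3p: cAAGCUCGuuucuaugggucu
miR-146a-5p: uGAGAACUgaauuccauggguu
miR-146a-3p: cCUGUGAAauucaguucuucag
miR-192-5p: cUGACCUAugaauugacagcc
miR-192-3p: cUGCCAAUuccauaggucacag
miR-29a-5p: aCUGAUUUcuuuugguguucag
miR-29a-3p: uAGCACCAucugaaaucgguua
miR-152-5p: uAGGUUCUgugauacacuccgacu
miR-152-3p: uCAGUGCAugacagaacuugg
miR-23a-5p: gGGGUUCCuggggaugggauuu
miR-23a-3p: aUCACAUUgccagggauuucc
In 120 called names with a sequence for each arm, the higher arm began with U in 65 (54.2%) and the lower arm in 27 (22.5%). U came first on the higher arm alone in 52 names and on the lower arm alone in 14. G began the higher arm in 7 and the lower arm in 19. These names include paralogs with alike sequences and are a description, without a test.

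The 5p arm was most strongly favoured in miR-26a, miR-146a, let-7f, miR-192 and miR-99a, with mean 5p shares of 99.98% or more. miR-26a had 59106 ± 9874 CPM on the 5p arm and 2.54 ± 0.565 CPM on the 3p arm (log2 ratio 14.48 ± 0.26 SE, edgeR adjusted p = 1.52e-19). let-7f had 51194 ± 7840 CPM on the 5p arm and 5.13 ± 0.884 CPM on the 3p arm. miR-99a had 56693 ± 11980 and 10.03 ± 3.05 CPM. In miR-146a, which restrains inflammatory signalling, the 3p arm had 3 counts over all 4 libraries against 40124 on the 5p arm, a ratio of 13375 with an exact 95% counting interval of 4576 to 64858. miR-192 likewise had 3 counts on the 3p arm against 25155, a ratio of 8385 (2869 to 40662).

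The 3p arm was most strongly favoured in miR-1a, miR-29a, miR-320, miR-152 and miR-23a. miR-1a had 4.32 ± 0.960 CPM on the 5p arm and 108665 ± 14453 CPM on the 3p arm (log2 ratio -14.59 ± 0.25 SE, edgeR adjusted p = 1.52e-19). miR-29a had 3.54 ± 1.57 and 13879 ± 3353 CPM. miR-320 had 1 count on the 5p arm, in sham replicate 1, against 4061 on the 3p arm, a ratio of 4061 with an exact 95% counting interval of 728 to 160440. miR-152 had 1.20 ± 1.42 and 2803 ± 424 CPM, and miR-23a had 2.45 ± 1.08 and 2998 ± 311 CPM. Of the extreme names on both sides, miR-146a, miR-192, miR-320 and miR-152 passed the minimum through 1 arm alone.

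Of the 10 most abundant hairpin names, miR-126a was the nearest to equal. Its 5p arm took 47.7% of the hairpin's counts in sham replicate 1 and 34.2, 29.6 and 31.7% in sham replicates 2 to 4, a mean of 35.8% ± 8.15 (SD, n = 4; log2 ratio -0.86 ± 0.17 SE, edgeR adjusted p = 0.000116). The 3p arm was higher in 4 of 4 libraries. miR-133a had 2.20% ± 0.457 on the 5p arm and miR-378a 1.38% ± 0.261. miR-22, miR-27b and miR-125b had 5p shares of 0.130% ± 0.0514, 0.102% ± 0.0109 and 99.2% ± 0.142 (SD, n = 4 each).

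The 5 nearest to equal, of the names whose arms together averaged 100 counts or more, were miR-132, miR-350, miR-434, miR-339 and miR-106b. miR-132, known from neurons and vessels, had 39.9, 48.8, 55.6 and 47.7% of its counts on the 5p arm in sham replicates 1 to 4 (edgeR adjusted p = 0.705). miR-350 had a mean 5p share of 48.0% ± 5.10, with the 5p arm higher in 1 library. miR-434 had 54.8% ± 6.59 and miR-339 55.1% ± 3.24, the latter with the 5p arm higher in all 4 libraries (edgeR adjusted p = 0.158). These 4 did not pass the test. miR-106b, of the miR-17 family of growth-promoting miRNAs, had 40.7% ± 4.43 on the 5p arm and passed narrowly (edgeR adjusted p = 0.0468).

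**Figure D4:**
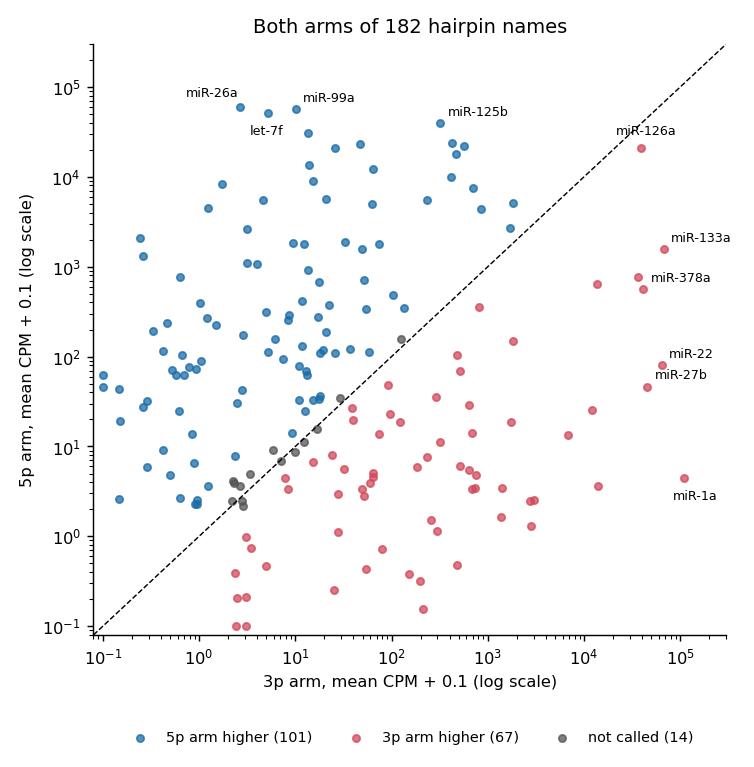
Mean CPM + 0.1 of the 5p arm against the 3p arm (both log scale) of 182 hairpin names, each 1 point coloured by the edgeR call, with the 10 most abundant named and the line of equal arms dashed. The 101 names with a higher 5p arm and the 67 with a higher 3p arm mostly lie far from the line, and miR-126a lies close to it.

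Hairpins of the same number usually kept the same arm. In 22 number families with 2 or more called names, 57 names in all, 19 had the same arm higher throughout. The exceptions were miR-130, miR-193 and miR-199, named after their values were seen. miR-130a was 3p, with 80.3 ± 8.33 CPM on that arm, whereas miR-130b was 5p, with 4.77 ± 1.93 CPM. miR-193b was 3p, with 49.6 ± 19.1 CPM, and miR-193a was 5p, with 2.55 ± 1.20 CPM. miR-199a was 5p and miR-199b was 3p, but miR-199a-3p and miR-199b-3p have the same sequence in RefSeq and the same counts within 0.0344%, so the 3p tags cannot be given to either hairpin. The difference between the names of a family was not tested. The agreement expected without any tie between names was not computed, and 101 of the 168 called names had a higher 5p arm. Names of the same number can also hold the same tags, so they do not count as independent, and the 19 families are a description.

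The spread between the 4 libraries was mostly larger than counting error. By a chi-square test of each miRNA's counts against the library totals, adjusted by Benjamini-Hochberg, 286 of 400 (71.5%) varied beyond counting error at an adjusted p below 0.05. Of the 218 with a mean above 100 counts, 204 did so, against 82 of the 182 with lower means. The median CV of the 218 was 17.4%, with 39 under 10% and 14 above 50%, and that of the 182 was 31.2%. The common biological coefficient of variation in edgeR was 0.277. Library pairs were close in log2(CPM + 1) over the 400 miRNAs, with Pearson's r from 0.982 to 0.992 across miRNAs, which are not independent replicates.

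Sham replicate 1 stood farthest from the others. Over the 218 miRNAs, its root mean square log2 deviation from the group mean was 0.41, against 0.34, 0.23 and 0.27 in sham replicates 2 to 4. It was the highest or the lowest library for 67.9% of them, against 42.7 to 45.4% in the others. Without it, 233 miRNAs varied beyond counting error, the biological coefficient of variation was 0.230 and 166 hairpin names were called. The 10 most abundant miRNAs then held 57.7% of the counts and the let-7 family 13.3%.

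At mean counts of 100 and above, the steadiest was miR-146b-5p, a restraint on inflammatory signalling, at 242, 233, 232 and 236 CPM (CV 1.95%). let-7a-5p came next with a CV of 3.32%. miR-1198-5p (62.7 ± 2.29 CPM), miR-497a-5p, of the miR-16 seed family (175 ± 6.42 CPM), and miR-208a-5p, the other arm of the Myh6 intron hairpin (69.7 ± 2.66 CPM), followed with CVs of 3.65, 3.67 and 3.82%. Of these 5, only let-7a-5p varied beyond counting error, at a mean of 144307 counts, where counting alone gives a CV of 0.263%.

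The most variable were mostly raised in a single library. miR-206-3p measured 240, 1390, 229 and 199 CPM (CV 113%), and its mean was 515 CPM with sham replicate 2 and 223 ± 21.5 CPM (SD, n = 3) without it. miR-381-3p measured 24.8, 145, 31.6 and 19.97 CPM (CV 108%), also highest in sham replicate 2. miR-582-3p measured 11.7, 10.2, 19.0 and 53.9 CPM (CV 86.6%), highest in sham replicate 4. miR-218-5p measured 48.2, 12.1, 10.8 and 15.0 CPM (CV 83.1%) and miR-455-5p 48.0, 16.9, 10.4 and 16.2 CPM (CV 74.3%). Both were highest in sham replicate 1.

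**Figure D5:**
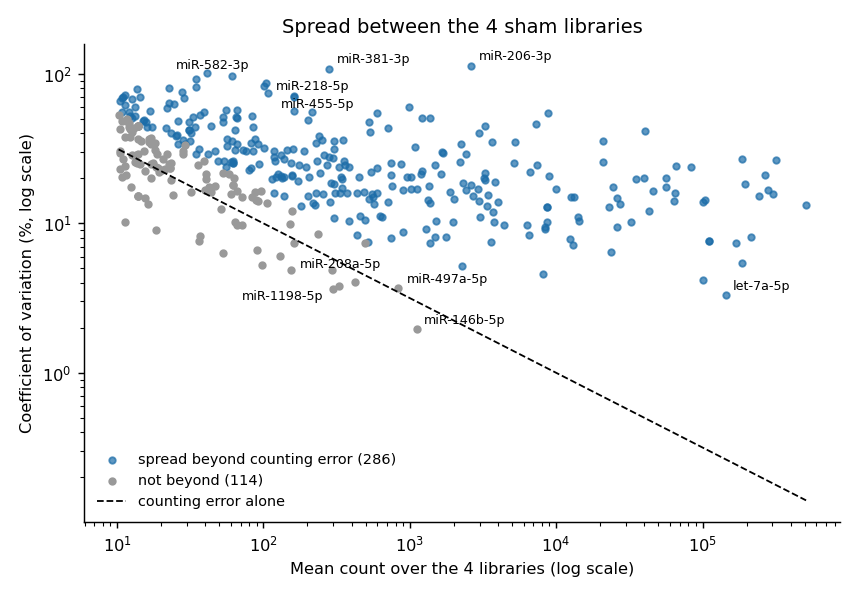
Coefficient of variation (%, log scale) over the 4 sham libraries against the mean count (log scale) of the 400 miRNAs, with the spread from counting alone dashed. The 286 miRNAs that varied beyond counting error are blue, the other 114 grey, and the 5 highest and 5 lowest above a mean of 100 counts are named, from miR-206-3p at 113% to miR-146b-5p at 1.95%.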

How the data were processed

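Small RNA counts of 4 sham cardiomyocyte libraries were used. The authors deposited raw whole counts of tags for each mature mouse miRNA, not normalized. The submitters' processing notes name mm10 and StringTie 1.3.1, but the miRNA aligner and reference version are not given in the sources used here. Groups came from the sample labels, and replicates are separate mice per the study's methods. Tag counts may include PCR copies, so counting intervals cover counting error only.

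Counts were divided by library miRNA totals (4005668 to 5392576) to give CPM. Members, lists and tests were chosen with earlier results of these data known. Seeds are bases 2 to 8 of RefSeq sequences. Members without a sequence were placed by number and arm where 1 family held over 95% of the matching counts. Hairpins and contexts came from GENCODE vM21, and clusters join hairpins at most 10 kb apart. Arms were tested with edgeR 4.0.16 in R 4.3.3, with library totals as sizes and library as a term. Adjusted p-values are Benjamini-Hochberg. DESeq2 1.42.0, limma 3.58.1, TMM, other minimums, distances and seed lengths, and each library left out were the alternatives. Tests were tried on simulated data. Python 3.11.15, pandas 2.3.3, scipy 1.17.1 and matplotlib 3.10.9 made the other values.

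The text names the 20 most abundant miRNAs, the 10 largest families and clusters, and the 10 most abundant hairpin names. It also names the 5 most extreme hairpins on each side and the 5 nearest to equal, the 5 highest and 5 lowest CVs above a mean of 100 counts, 3 miRNAs on each side of the minimum, and the marker miRNAs.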

Additional observations from a re-analysis of the deposited data

Results flagged for a closer look

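Within the 4 sham libraries, 110 reported values were tested for a library apart by the ratio of the gap to the range (Dixon), and 7 passed. Chance flags about 1 in 20 values that were not chosen for their spread, but miR-206-3p, miR-381-3p and miR-218-5p were named for their high CVs, and miR-217-5p and miR-320 rest on 1 count each, so the number that passed is not set against that rate. Over all 218 miRNAs with a mean above 100 counts, 18 passed, with sham replicate 1 apart in 11, sham replicate 2 in 4, sham replicate 4 in 3 and sham replicate 3 in 0.

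miR-206-3p was high in sham replicate 2, at 1390 CPM against 199 to 240 CPM in the others (ratio 0.965). miR-381-3p, of the large imprinted miRNA cluster on chromosome 12, was also high there, at 145 CPM against 19.97 to 31.6 CPM (ratio 0.907). The epithelial marker miR-182-5p measured 25.6 CPM in the same library and 13.4 to 14.9 CPM in the others (ratio 0.879). The acinar marker miR-217-5p had 0.185 CPM in sham replicate 2 and 0 in the others (ratio 1), which is within what counts of 0 allow. miR-218-5p was high in sham replicate 1, at 48.2 CPM against 10.8 to 15.0 CPM (ratio 0.888). miR-199a-3p was low in sham replicate 4, at 1457 CPM against 1885 to 1942 CPM (ratio 0.884). The 5p arm of miR-320 had counts in sham replicate 1 alone, at 0.0933% of the hairpin's counts (ratio 1), from 1 count.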

How the results depend on the processing

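No paired analysis was possible because groups were not compared. Of 351 values under alternatives, 335 stayed within 1 SD (values) or 1.5 times (counts), 16 moved and 0 reversed. With entries that repeat another's tags counted once, an alternative added after seeing the data, the 10 most abundant miRNAs held 58.7%. The described miRNAs numbered 218 at a mean above 100 and 697 without a filter. The Mir1a-1 and Mir133a-2 cluster held 5.43% at most 3 kb apart, where it splits, 17.8% with shared miRNAs whole and 0.000356% without them. Of the 292 values of smaller results, 10 moved, 9 of them cluster shares (shared miRNAs or another distance) and 1 the miR-30a-5p family without names. Leaving out each library gave 56.9 to 57.7% for the 10 most abundant, 12.8 to 13.3% for let-7, 8.51 to 9.16% for the first cluster, 391 to 404 miRNAs, 159 to 166 arm calls, 233 to 269 miRNAs beyond counting error and a biological coefficient of variation of 0.230 to 0.307. Arm calls numbered 163 by DESeq2 and 165 by limma. Below a mean of 100 counts, counting error limits what the CV shows.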

Other observations

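Some well-known miRNA clusters were small in these cells. The cluster of Mir17, Mir18, Mir19a, Mir20a, Mir19b-1 and Mir92-1, which promotes growth and lies in Mir17hg (chr14:115043671-115044506, plus strand), held 0.0985% ± 0.00922 of the counts (SD, n = 4), with miR-92a-3p as its most abundant member. miR-92a-3p and miR-19b-3p are also made by the X chromosome cluster of Mir363, Mir92-2 and Mir19b-2 and were split equally. The share was 0.178% with them counted whole and 0.0194% without them. The 7 hairpins from Mir450b to Mir322 on the X chromosome (chrX:53047997-53054349, minus strand) held 0.125% ± 0.0161. The 25 hairpins of the Mir466 and Mir467 repeats in Sfmbt2 (chr2:10474219-10512062, plus strand), the largest cluster by hairpins, held 0.00308% ± 0.00106 (SD, n = 4 each). These clusters were chosen after their values were seen.

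miR-381-3p belongs to the imprinted cluster from Mir379 onward (chr12:109709060-109743795, plus strand), with 16 members among the 400 miRNAs. The cluster held 0.0262, 0.0585, 0.0339 and 0.0268% of the counts in sham replicates 1 to 4. Of its 16 members, 12 were highest in sham replicate 2, and over all 400 miRNAs that library was highest for 116 (29%). The cluster was examined because of miR-381-3p, which is 1 of the 12 and is included in the cluster's share. Sham replicate 2 was also highest for the Mir127, Mir434 and Mir136 cluster on the same strand of chromosome 12. That cluster held 0.0705, 0.129, 0.0804 and 0.0636% in sham replicates 1 to 4. The smaller Mir341 and Mir370 cluster, likewise there, held 0.000475, 0.00115, 0.00116 and 0.000549% and was highest in sham replicate 3. miR-206-3p shares a transcript annotation, Gm28653, with miR-133b-3p (chr1:20679010-20682887, plus strand). miR-133b-3p measured 2782, 3108, 3384 and 2652 CPM in sham replicates 1 to 4, so that the library with the raised miR-206-3p was not its highest. The cause of neither pattern was tested.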
